A study of Mus musculus with 6 samples.

Results

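HuR is the RNA-binding protein encoded by Elavl1, and 32 mRNAs reported in the literature to be bound by it were followed here in mouse brain. The knockout mice were bred and treated for deletion of the gene in neurons, but a fall of Elavl1 mRNA was not resolved in whole brain. The mRNAs were chosen by name, but with earlier results of these data known, so the list as a whole was given no p value. Of the 32, 31 had a probeset annotated with exactly 1 gene symbol on the Mouse Gene 2.0 ST array, among 22180 such genes in all, and each was read by its probeset with the highest mean level. Ccnb1, the mitotic cyclin, was not listed by symbol in the annotation used here and was not analysed. Il6 lay below the level limit set for testing (a mean log2 level of 3.28, the 25th percentile), so 30 were tested among 16635 genes.

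HuR binds U-rich and AU-rich stretches, mostly in the tails that follow the coding part of an mRNA. It is best known for shielding short-lived messages from decay, often in competition with factors such as the tristetraprolin family (Zfp36) that speed decay, and it can also change how well a message is translated. HuR is made in nearly all cells, whereas its relatives Elavl2, Elavl3 and Elavl4 are mostly neuronal and recognise similar stretches.

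The knockout brains, labelled KO, came from Thy1Cre-ERT2-EYFPHuRf/f mice, which carry floxed HuR on both alleles. The control brains, labelled WT, came from Thy1Cre-ERT2-EYFPHuRf/+ mice, which carry 1 floxed allele and the same Cre transgene. Both groups received tamoxifen at 10 and 11 weeks of age, included mice of either sex, and were 91 days old when the whole brain was taken, with 3 arrays per group. The Thy1 promoter directs Cre to neurons, so other cells of the knockout brain keep HuR, and tamoxifen and Cre can also remove the single floxed allele of control neurons. In whole-brain RNA, fewer cells of a type and less RNA per cell cannot be told apart.

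Levels are log2(intensity + 1) after quantile normalization, a fold change is knockout over control on that scale, which understates changes of dim genes, and adjusted p values are from limma with Benjamini-Hochberg adjustment over all genes tested. Knockout array 3 and control array 3 differed from the other 4 arrays. Xist, the RNA that silences one X chromosome, was at 7.68 on knockout array 3 and 7.69 on control array 3, against 2.52 to 2.79 on the others, and Y-linked genes were lower there, so these arrays read as female. In 44% of all genes tested, both arrays numbered 3 lay outside the range of the other 4. The defining neuron markers were measured on every array, with summed intensities of 11028 to 14797 in knockout and 10578 to 15022 in control brain, and all 8 of them were tested. In knockout over control all 8 had values above 0, against 54.8% of all genes tested, and 0 passed an adjusted p of 0.05 in limma. Their median log2 fold change was 0.045, and it ran from -0.021 to 0.20 with 1 array left out.

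Elavl1 itself had log2 levels of 8.22, 8.17 and 8.27 on the 3 knockout arrays, against 8.27, 8.01 and 8.53 on the 3 control arrays. The groups overlapped, and all 3 knockout values lay within the range of the controls. The log2 fold change was -0.050 with a 95% interval of -0.39 to 0.29, and an exact permutation test (two-sided) gave p = 0.7, with 0.1 the smallest p that 3 arrays against 3 allow. Its sign turned with arrays centred on their median (0.014) and without control array 3 (0.080). No fall of Elavl1 mRNA was resolved in whole brain, so this value does not check the labels. The position of the 1 Elavl1 probeset relative to the floxed part is unstated in the sources used here. The extent of deletion, that position, HuR kept by other cells and loss of the floxed allele in control neurons cannot be told apart.

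None of the 30 HuR-reported mRNAs tested passed an adjusted p of 0.05 in limma, and the share over all genes tested was 0%. At an unadjusted p under 0.05 there were 0 of the 30, against 1.7% of all genes (282). With arrays of the same number treated as pairs, 1 of the 30 had an unadjusted p under 0.05 (Plaur), against 4.85% of all genes, and again 0 passed when adjusted. Of the 30 mRNAs, 17 had values above 0 and 13 below, and their median log2 fold change was 0.022, where the median over all genes tested was 0.013. The share above 0 was 56.7%, against 54.8% of all genes, and it was 76.7% against 68.6% with arrays centred on their median. The median was 0.077 without control array 3, against 0.019 over all genes tested.

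The intervals give the precision of this result. The 95% interval lay wholly within 1.5-fold in either direction for 25 of the 30 mRNAs, or 83.3%, against 80.6% of all genes tested. For all 30 it lay within 2-fold. The mRNAs with intervals reaching beyond 1.5-fold were Ptgs2, Nos2, Dusp1, App and Slc7a1. All these intervals are from the fit without pairs. With arrays of the same number as pairs, the standard error was 0.087 for App (0.26 without pairs) and 0.10 for Dusp1 (0.28). It was 0.13 for Slc7a1 (0.34) and for Ptgs2 (0.16), and 0.14 for Nos2 (0.15). Log2 fold changes of the 30 ran from -0.26 to 0.28, and half-widths of the intervals from 0.23 to 0.79.

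**Figure D1:**
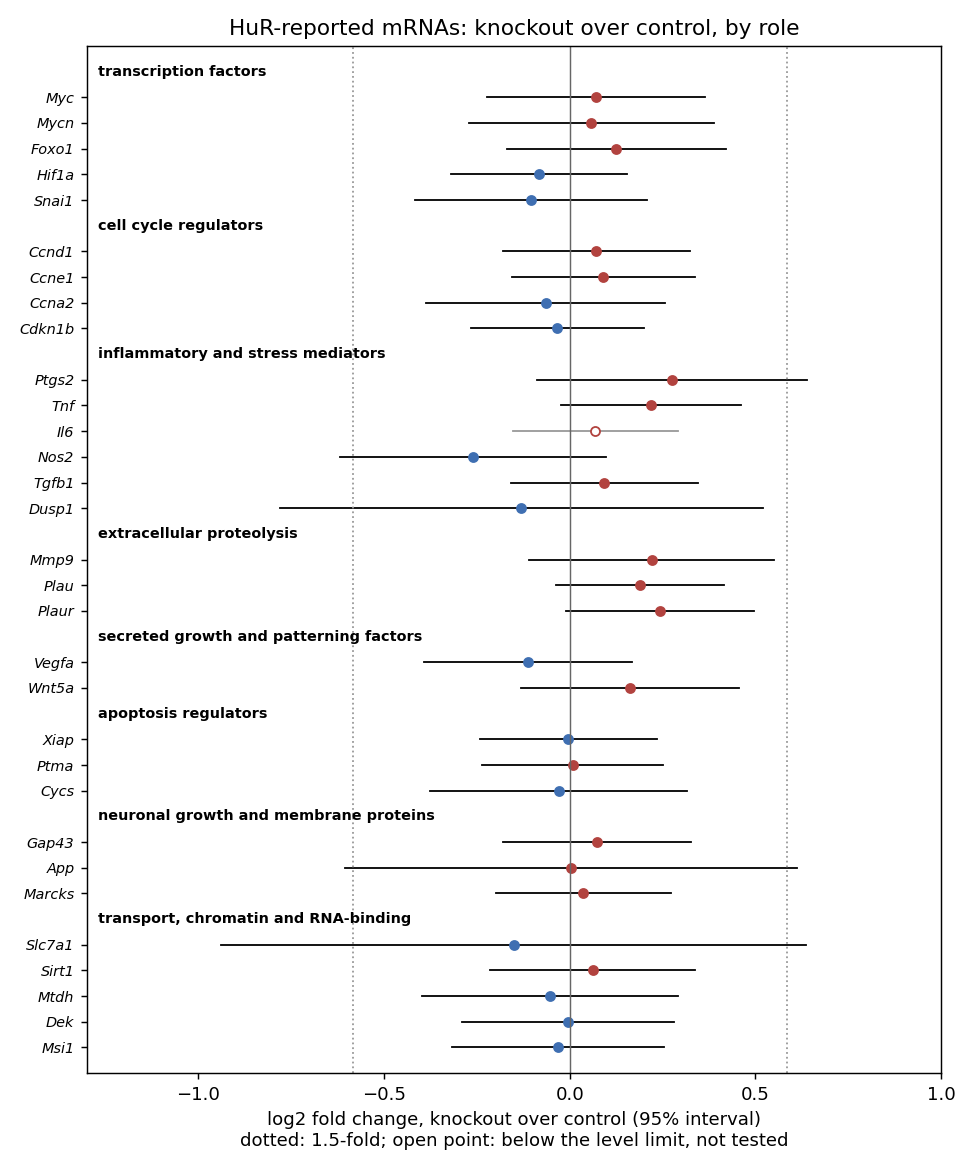
Log2 fold change of knockout over control for the 31 HuR-reported mRNAs with a probeset, grouped by role, with 95% intervals from limma (n = 3 arrays per group). Points right of 0 are higher in knockout; every interval crosses 0, and 25 of the 30 tested stay inside the dotted lines at 1.5-fold.

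**Figure D2:**
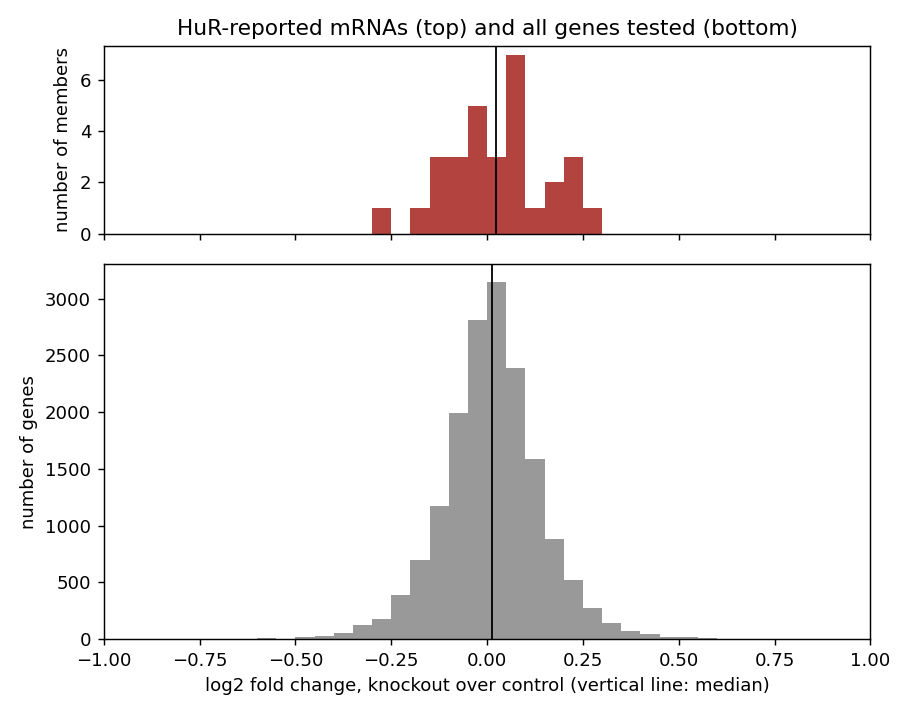
Distribution of log2 fold changes (knockout over control, x axis) for the 30 HuR-reported mRNAs tested (top, number of mRNAs) and all 16635 genes tested (bottom, number of genes; 2 genes lie outside the axis). The medians, 0.022 and 0.013, lie close together.

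In 3 of the 30 mRNAs, or 10%, every knockout array lay above every control array, where the share over all genes tested was 3.14%. No member had each knockout array below each control array, where the share over all genes was 2.55%. The 3 were Plaur, Plau and Tnf. With values as deposited the mRNAs higher without overlap were Plau, Plaur and Marcks, since Tnf overlapped there, and Hif1a was lower without overlap, where the shares over all genes were 3.02% higher and 2.75% lower. With arrays centred on their median they were Tnf, Tgfb1, Plau, Plaur and Marcks, with 4.41% of all genes higher without overlap.

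The promoters of Tnf and Plaur, the non-overlapping mRNAs with a listed promoter, and of Ptgs2, which had the largest log2 fold change of the 30, are shown to give the sequence around the start of each message. They are taken from RefSeq on build GRCm38.p6, whose promoter table holds 21 of the 32 genes, and run 5′ to 3′ on the gene's strand over 250 bases before and 50 after the start. Tnf lies at chr17:35201958-35202257 on the minus strand, Plaur at chr7:24462233-24462532 and Ptgs2 at chr1:150099781-150100080, both on the plus strand. The RefSeq gene model of Plaur begins farther upstream, at 24460937, so its window lies around a later start within that model. Capitals mark matches to any of 3 motifs, each searched on both strands.
Tnf: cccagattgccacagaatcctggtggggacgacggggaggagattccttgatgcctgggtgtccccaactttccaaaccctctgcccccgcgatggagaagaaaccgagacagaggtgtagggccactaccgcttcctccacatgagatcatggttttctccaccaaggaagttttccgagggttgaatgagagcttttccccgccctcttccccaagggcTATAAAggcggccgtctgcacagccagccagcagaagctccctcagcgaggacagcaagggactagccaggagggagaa
Plaur: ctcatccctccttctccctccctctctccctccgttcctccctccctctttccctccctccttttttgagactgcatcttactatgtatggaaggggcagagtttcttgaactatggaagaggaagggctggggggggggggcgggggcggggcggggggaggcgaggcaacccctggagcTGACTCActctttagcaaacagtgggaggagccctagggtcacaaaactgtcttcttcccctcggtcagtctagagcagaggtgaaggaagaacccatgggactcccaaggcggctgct
Ptgs2: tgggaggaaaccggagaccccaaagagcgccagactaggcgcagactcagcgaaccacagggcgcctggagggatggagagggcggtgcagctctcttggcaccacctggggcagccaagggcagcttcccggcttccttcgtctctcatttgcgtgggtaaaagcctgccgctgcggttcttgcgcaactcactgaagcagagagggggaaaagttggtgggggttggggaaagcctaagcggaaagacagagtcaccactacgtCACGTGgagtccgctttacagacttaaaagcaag

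The motifs were picked after the sequences had been read. One was the TATAAA box that positions the transcription machinery. Another was the site of the stress-responsive factor AP-1, spelled TGANTCA with N for any base. The last was the E-box of bHLH factors, spelled CACGTG. The capitals in Tnf are the TATAAA box, 29 bases before the start, a motif present in 13.6% of all 32851 listed promoters of 300 bases. Those in Plaur are an AP-1 motif 69 bases before the start, present in 7.81% of promoters. In Ptgs2 they are an E-box that begins at base 17 counted from the start listed by RefSeq, present in 7.15%. No 2 of the motifs overlapped in these windows. A further motif was searched for at first and is not reported here. These are matches of letters only, and a missing match says nothing of a factor.

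Among the mRNAs for extracellular proteolysis, all 3 had values above 0 and 0 passed the test. Plaur encodes the cell surface receptor of urokinase, which concentrates the protease on the cell membrane. It had log2 levels of 3.94, 3.90 and 4.05 on the knockout arrays, against 3.81, 3.62 and 3.73 on the control arrays. The highest control value lay just under the lowest knockout value. The log2 fold change was 0.24 (1.18-fold, 95% interval -0.0091 to 0.50; limma adjusted p = 1), and it was 0.20 without both arrays numbered 3.

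Plau encodes urokinase itself, the serine protease that activates plasminogen. Its log2 levels were 4.28, 4.23 and 4.31 in knockout brain, against 4.03, 4.10 and 4.11 in control brain. The deposited intensities were low, at 17.7 to 18.3 in knockout and 15.0 to 17.1 in control brain. The knockout arrays clustered tightly above the controls, and the log2 fold change was 0.19 (1.14-fold, 95% interval -0.038 to 0.42; limma adjusted p = 1). Mmp9, a gelatinase that cleaves extracellular matrix, had levels of 4.12, 4.45 and 4.59 in knockout and 4.12, 4.15 and 4.23 in control brain. Knockout array 1 lay just under the lowest control value, while the other knockout arrays lay above the control range. The log2 fold change of Mmp9 was 0.22 (-0.11 to 0.55), and it was 0.12 without knockout array 3 and 0.36 without knockout array 1.

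The inflammatory and stress mediators held the widest spread, with 3 of 5 tested above 0 and 0 past the test. Tnf, the cytokine tumour necrosis factor, had log2 levels of 3.83, 3.79 and 3.92 on the knockout arrays, against 3.58, 3.72 and 3.58 on the control arrays. All knockout values were higher, though by little above control array 2. Its log2 fold change was 0.22 (1.16-fold, 95% interval -0.024 to 0.46; limma adjusted p = 1). Tnf, Plaur, Nos2, Ccna2 and Il6 were dim, with means over all arrays below the array median of 3.88, and the values come without detection calls.

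Ptgs2, the inducible cyclooxygenase of prostaglandin synthesis, is also an activity-dependent gene of cortical neurons. It had log2 levels of 6.64, 6.16 and 6.31 in knockout brain, against 6.02, 5.98 and 6.29 in control brain. Knockout array 1 was high, and control array 3 lay above the lowest knockout array. The log2 fold change was 0.28 (-0.088 to 0.64), and without knockout array 1 it was 0.14. Immediate early genes, which mark recent neuronal activity, had values above 0 in 1 of 8 and a median of -0.12, with summed intensities of 1174 to 1552 in knockout and 1161 to 1934 in control brain. Junb was lower in knockout without overlap, 1 of the 8, against 2.55% of all genes tested. The median was 0.15 without control array 3 and 0.029 without both arrays numbered 3. Their part in the Ptgs2 value was not tested.

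Nos2, the inducible nitric oxide synthase, had the lowest value of the 30. Its log2 levels were 3.34, 3.22 and 3.22 in knockout brain, against 3.28, 3.83 and 3.45 in control brain. Control array 2 was high and control array 1 lay within the knockout range. The log2 fold change was -0.26 (-0.62 to 0.098), and it was -0.11 without control array 2.

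Il6, the cytokine interleukin 6, had log2 levels of 2.69, 2.85 and 2.82 in knockout brain and 2.74, 2.70 and 2.71 in control brain. All 6 values lay below the level limit and the groups overlapped. Tgfb1, the anti-inflammatory growth factor, averaged 5.43 ± 0.080 in knockout and 5.34 ± 0.097 in control brain (SD, n = 3 each), with a log2 fold change of 0.093 (-0.16 to 0.34).

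Tnf, Plau and Plaur are made by microglia and macrophages among other cells, and markers of those cells are given beside them. Of 7 microglia and macrophage markers tested, 4 had values above 0 and 0 passed, with a median of 0.026. Their summed intensity was 593 to 811 in knockout and 617 to 809 in control brain, and none was at 0. Blood leukocyte markers had 3 of 4 tested above 0, a median of 0.37 and summed intensities of 44 to 134 in knockout and 46 to 64.3 in control brain. Meningeal fibroblast markers had 4 of 5 above 0, 1 of 5 higher without overlap (Col3a1), against 3.14% of all genes tested, a median of 0.20 and summed intensities of 345 to 572 in knockout and 299 to 640 in control brain. Oligodendrocyte markers had 1 of 6 above 0, a median of -0.12, 3 of 6 lower in knockout without overlap (Mog, Opalin and Cldn11), against 2.55% of all genes tested, and summed intensities of 3029 to 3178 in knockout and 2976 to 3573 in control brain. The leukocyte median was 0.087 without knockout array 1, where S100a8 was at 6.26. The meningeal median was 0.0087 without knockout array 1 and -0.028 without control array 3. With 1 array left out, the median ran over -0.067 to 0.092 for microglia, -0.26 to -0.051 for oligodendrocyte and -0.015 to 0.18 for astrocyte markers. Astrocyte markers had 5 of 6 above 0 and a median of 0.080. Endothelial and pericyte markers had 5 of 6 above 0 and a median of 0.032, which ran from -0.40 to 0.35 with 1 array left out. None of these markers passed the test, and their part in the values of the HuR-reported mRNAs was not tested.

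**Figure D3:**
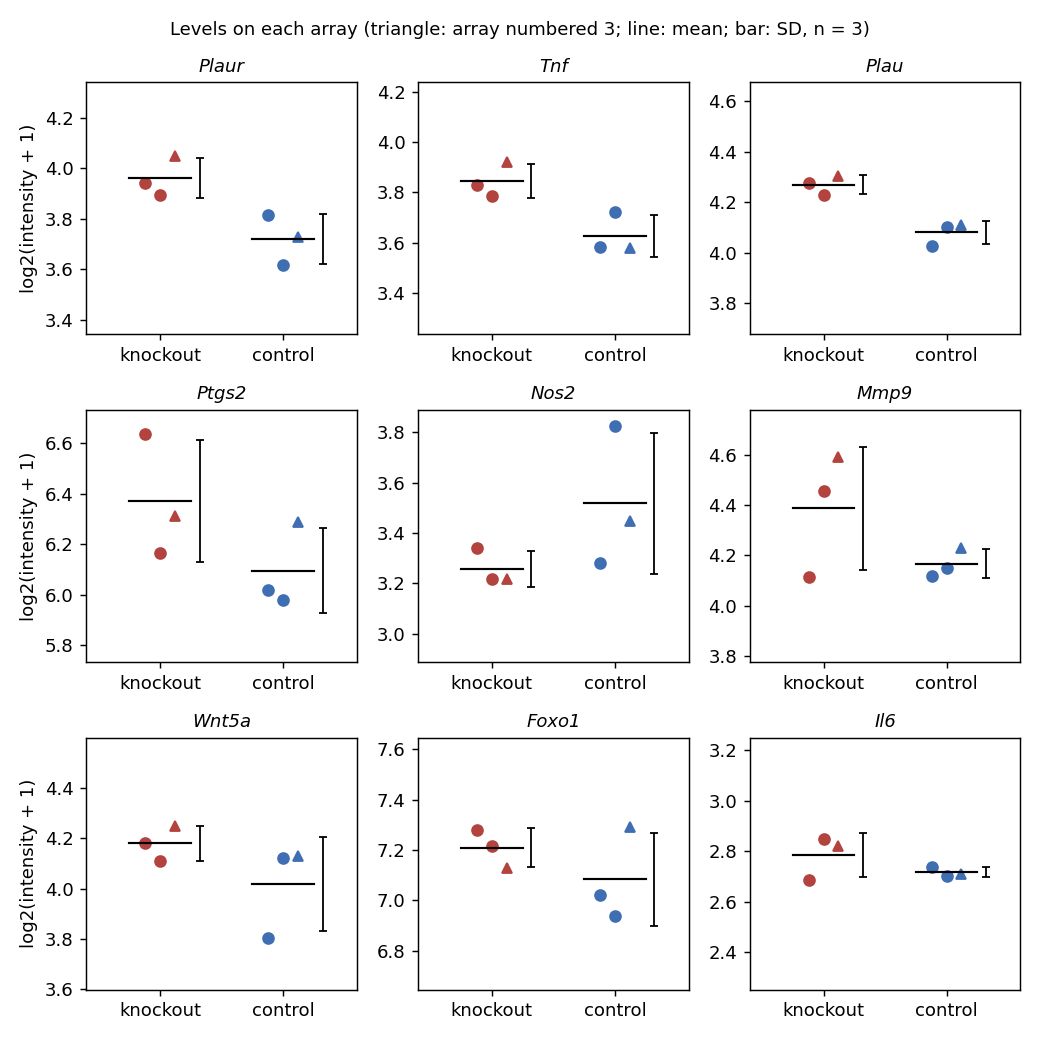
Log2(intensity + 1) on each array for the 8 HuR-reported mRNAs with the smallest unadjusted p and for Il6, with knockout (red) left of control (blue). Lines are means and bars SD (n = 3); each panel spans 1 log2 unit. Groups separate for Plaur, Tnf and Plau and overlap in the other 6 panels.

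Both secreted growth and patterning factors overlapped between the groups. Wnt5a, a ligand of non-canonical Wnt signalling, had log2 levels of 4.18, 4.11 and 4.25 in knockout brain, against 3.80, 4.12 and 4.13 in control brain. Control array 1 was the low one, and the log2 fold change of 0.16 (-0.13 to 0.45) was 0.054 without it. Vegfa, the main growth factor of blood vessels, averaged 7.66 ± 0.12 in knockout and 7.78 ± 0.13 in control brain (SD, n = 3 each), with a log2 fold change of -0.11 (-0.39 to 0.17).

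Of the 5 transcription factors, 3 had values above 0 and 0 passed. Foxo1, which acts downstream of insulin signalling, had log2 levels of 7.28, 7.22 and 7.13 in knockout brain, against 7.02, 6.94 and 7.29 in control brain. Control array 3 exceeded every knockout array. The log2 fold change was 0.12 (-0.17 to 0.42), and it was 0.27 without both arrays numbered 3. With 1 array left out it ran over 0.051 to 0.23, lowest without control array 2. A second Foxo1 probeset had a value of -0.20 ± 0.17 (SE), the opposite sign.

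Myc, a regulator of growth and a classic HuR-bound message, averaged 5.05 ± 0.085 in knockout and 4.98 ± 0.18 in control brain (SD, n = 3 each), a log2 fold change of 0.072 (-0.22 to 0.37). Its neural relative Mycn had a log2 fold change of 0.058 (-0.27 to 0.39), from 4.64 ± 0.15 in knockout and 4.58 ± 0.20 in control brain. Neither differed by more than the spread between arrays. Hif1a, the oxygen-sensing factor, averaged 8.52 ± 0.037 in knockout and 8.60 ± 0.082 in control brain, a log2 fold change of -0.083 (-0.32 to 0.15). A second, dimmer Hif1a probeset had a value of 0.17 ± 0.094 (SE). Snai1, which represses epithelial genes, had a log2 fold change of -0.10 (-0.42 to 0.21), with 3.89 ± 0.15 in knockout and 3.99 ± 0.17 in control brain.

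The cell cycle regulators split evenly, with 2 of 4 above 0. Ccnd1, the cyclin that carries cells out of the resting phase, averaged 6.93 ± 0.10 in knockout and 6.85 ± 0.071 in control brain, a log2 fold change of 0.071 (-0.18 to 0.32). Ccne1, the cyclin of S phase entry, had one of 0.091 (-0.16 to 0.34), with 5.63 ± 0.067 in knockout and 5.54 ± 0.095 in control brain. These 2 cyclins had values above 0 and overlapping groups. Ccna2, the cyclin of S phase and mitosis, was dim, at 3.52 ± 0.10 in knockout and 3.58 ± 0.22 in control brain, with a log2 fold change of -0.065 (-0.39 to 0.26). Cdkn1b, the cyclin-dependent kinase inhibitor that holds cells at rest, averaged 7.31 ± 0.037 in knockout and 7.34 ± 0.069 in control brain. Its log2 fold change was -0.033 (-0.27 to 0.20), among the narrower intervals.

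The 3 apoptosis regulators had values close to 0. Xiap, an inhibitor of caspases, averaged 6.06 ± 0.036 in knockout and 6.06 ± 0.086 in control brain (SD, n = 3 each), a log2 fold change of -0.0037 (-0.24 to 0.23). Ptma, the nuclear protein prothymosin alpha, averaged 10.35 ± 0.048 in knockout and 10.35 ± 0.098 in control brain, a log2 fold change of 0.0074 (-0.24 to 0.25). Cycs, cytochrome c, which carries electrons in mitochondria and triggers caspases once released, had one of -0.030 (-0.38 to 0.32), with 10.98 ± 0.17 in knockout and 11.01 ± 0.21 in control brain. The signs of these near-zero values turned under some alternatives. Cycs and Ptma have processed pseudogenes of similar sequence, so their probesets may read more than 1 locus. The 5 Cycs probesets gave values from -0.13 to 0.039, all smaller than their standard errors, and a pair of these probesets held identical values.

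The messages for neuronal growth and membrane proteins had 3 of 3 values above 0, all small. Gap43, the growth cone protein and an established target of the neuronal relative HuD, averaged 9.11 ± 0.075 in knockout and 9.04 ± 0.10 in control brain, a log2 fold change of 0.074 (-0.18 to 0.33). Marcks, a substrate of protein kinase C at the membrane, had one of 0.037 (-0.20 to 0.27), with 8.71 ± 0.028 in knockout and 8.67 ± 0.082 in control brain. Neither difference exceeded the SD of the control arrays. App, the amyloid precursor protein, had a log2 fold change of 0.0033 (-0.61 to 0.61), from 11.23 ± 0.38 in knockout and 11.23 ± 0.43 in control brain, with a wide interval.

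In the last group, transport, chromatin and RNA-binding messages, 1 of 5 had a value above 0. Sirt1, a deacetylase, averaged 6.47 ± 0.15 in knockout and 6.41 ± 0.089 in control brain, a log2 fold change of 0.062 (-0.21 to 0.34). Mtdh, a membrane and nuclear protein linked to tumour growth, had one of -0.053 (-0.40 to 0.29), with 8.33 ± 0.12 in knockout and 8.38 ± 0.24 in control brain. Both intervals spanned 0. Dek, a chromatin protein, averaged 7.48 ± 0.11 in knockout and 7.48 ± 0.15 in control brain, a log2 fold change of -0.0045 (-0.29 to 0.28). Msi1, an RNA-binding protein of neural stem cells and glia, had a log2 fold change of -0.032 (-0.32 to 0.25), with 6.38 ± 0.15 in knockout and 6.41 ± 0.10 in control brain.

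Some of the HuR-reported mRNAs, 26.7% of those tested against 44% of all genes tested, were apart on the arrays numbered 3. Shown here are 3 cases chosen after their values had been seen. Slc7a1, the cationic amino acid transporter, was at 6.11 on knockout array 3 and 6.30 on control array 3, against 5.14 to 5.64 on the other 4 arrays. App was at 11.67 on knockout array 3 and 11.73 on control array 3, against 10.95 to 11.08 on the others. Dusp1, the phosphatase that switches off stress kinases, was at 7.87 on knockout array 3 and 8.08 on control array 3, against 7.07 to 7.63 on the others. Both arrays numbered 3 lay above all others in these 3 mRNAs, on average by 0.89 for Slc7a1, 0.70 for App and 0.67 for Dusp1 on the log2 scale.

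In the fit without pairs, their intervals for knockout over control were among the widest of the 30. Slc7a1 averaged 5.54 ± 0.50 in knockout and 5.69 ± 0.59 in control brain (SD, n = 3 each), a log2 fold change of -0.15 (-0.94 to 0.64). Dusp1 averaged 7.46 ± 0.37 in knockout and 7.59 ± 0.50 in control brain, a log2 fold change of -0.13 (-0.78 to 0.52). Without both arrays numbered 3 the values were -0.13 for Slc7a1, 0.034 for App and -0.092 for Dusp1.

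Cycs, Mtdh, Dek, Ptma and Cdkn1b lay on the opposite side, with both arrays numbered 3 below all others, by 0.075 to 0.33 on average. In all, 8 of the 30 mRNAs, or 26.7%, were apart on the arrays numbered 3, against the 44% of all genes. Endothelial and pericyte markers were higher on both of these arrays in 6 of 6, with summed intensities of 309 to 364 there, against 142 to 159 on the other 4. Microglia and macrophage markers had 593 to 617, against 790 to 811, with 6 of 7 lower on both. Neuron markers had 14797 to 15022 on the arrays numbered 3, against 10578 to 11225, with 6 of 8 higher on both. Sex, tissue makeup and any other way in which these mice or arrays differed cannot be told apart, and the part of these markers in the values of the HuR-reported mRNAs was not tested.

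**Figure D4:**
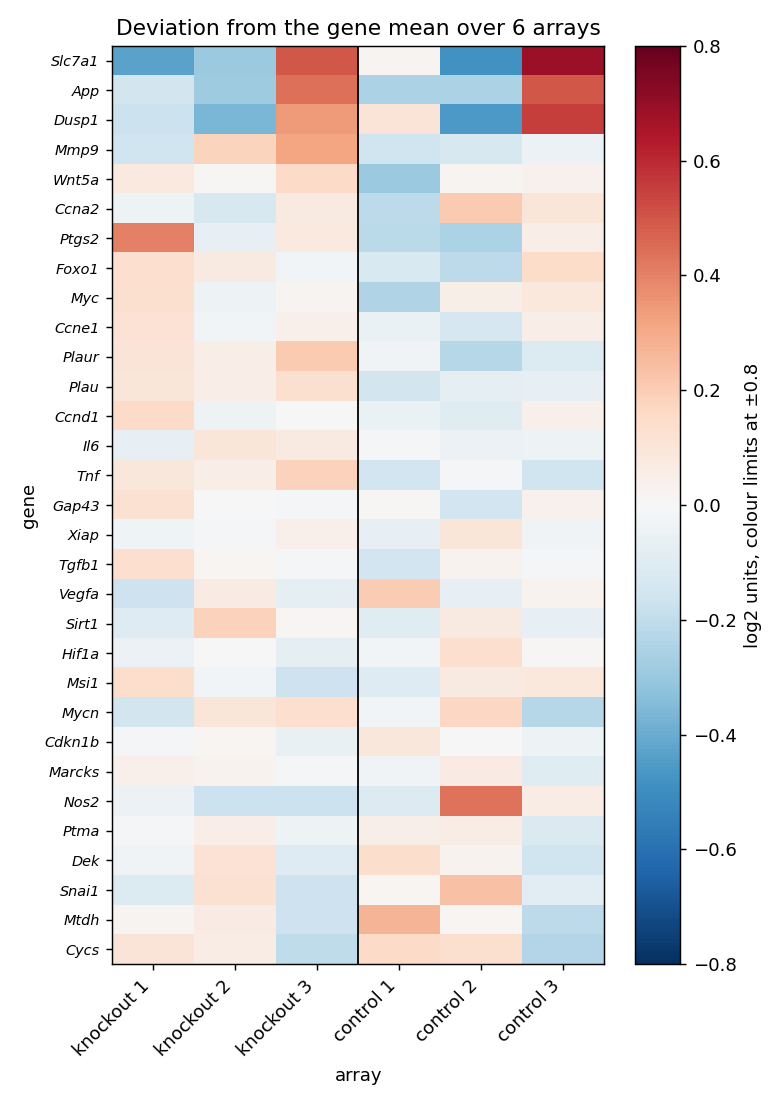
Deviation of each HuR-reported mRNA from its mean over the 6 arrays (colour, log2 units), with knockout arrays left of control arrays and genes ordered by the level on arrays numbered 3 minus that on the others. Slc7a1, App and Dusp1 at the top are high on both arrays numbered 3, and Mtdh and Cycs at the bottom are low on them.

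A second list of 18 mRNAs named in reports of HuR binding gave 16 tested, of which 11 had values above 0 and 0 passed an adjusted p of 0.05 in limma (0 at an unadjusted p under 0.05). The median log2 fold change was 0.050, and values ran from -0.16 to 0.16. The smallest p values belonged to the cell cycle inhibitor Cdkn1a (0.16 ± 0.20, SE), the survival protein Mcl1 (0.10 ± 0.15) and the transcription factor Fos (-0.16 ± 0.28). None exceeded its standard error. On the arrays numbered 3, 7 of these 16 lay above and 5 below all other arrays, which is 75% of the list, against 44% of all genes tested. The median of the list was 0.0021 without control array 1.

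Proteins that bind the same kind of mRNA stretch also had values near 0. Among the ELAV family, the log2 fold change was -0.0064 for Elavl2, 0.040 for Elavl3 and -0.040 for Elavl4, smaller than the standard error in all 3 cases; with arrays centred on their median all 3 lay above 0. Of 8 other AU-rich element binding proteins tested, 7 had values above 0 and 0 passed, with a median of 0.034. Tia1, a translational repressor of stress granules, had the smallest p of these (0.15 ± 0.12, SE).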

How the data were processed

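Whole-brain RNA of knockout and control mice was hybridised to 6 arrays, 3 per group, 150 ng labelled with the Affymetrix WT Plus kit per the labels. The authors deposited linear intensity values of 41340 probesets; the submitters' processing notes name MAS5 without a version, and other steps are not stated in the sources used here. Replicates are separate samples by label, with no animal named, so p values reflect only the spread among these samples. By Xist and Y-linked genes each group held arrays of both sexes, so this spread is not only technical. Whether arrays 1 and 2 of a group came from different mice is not stated. Array medians differed by 0.12 on the log2 scale, above the 0.1 limit, so log2(intensity + 1) values were quantile normalized. Each of 22180 genes was read by its brightest probeset with exactly 1 symbol, and the lowest 25% (5545 genes) were left out by mean level over all arrays. The comparison used limma 3.58.1 in R 4.3.3 with two-sided moderated tests (lmFit, eBayes), and the procedure was also run on simulated data. The simulated noise was independent between arrays, without the shared difference of the arrays numbered 3, so no power for these data is read from it. All 31 genes matched the RefSeq table of GRCm38.p6 by identifier. Plots used matplotlib 3.10.9 in Python 3.11.15. The members, the lists and tests were chosen with earlier results of these data known. Values on every array are given for mRNAs with non-overlapping groups, the 8 with the smallest p and those below the level limit. Other mRNAs have means, fold changes and intervals, and from other lists at most 3 genes with the smallest p are named. Alternatives covered scaling, pseudocount (16), level filter, probeset rule, variance model, Xist as a covariate, the replicate block and leaving out arrays. Deviations from group means correlated at 0.31, 0.37 and 0.75 for numbers 1, 2 and 3. No label states that arrays of the same number are pairs. The main fit did not pair them, and the replicate block was an alternative only. Only number 3 is set apart by these correlations, since knockout 2 and control 1 correlated at 0.40. The table has 0 sample columns that were not used.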

Additional observations from a re-analysis of the deposited data

How the results depend on the processing

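All 16 alternatives gave 0 genes and 0 HuR-reported mRNAs past an adjusted p of 0.05 in limma. The median of the 30 mRNAs was 0.069 with arrays centred on their median, against 0.055 over all genes tested. It ran from 0.022 to 0.077 when 1 array was left out, the highest without control 3. The median over all genes then ran from 0.0062 to 0.019, also highest without control 3. Genes at an unadjusted p under 0.05 numbered 282, against 806 with the replicate number as a block, 766 with Xist as a covariate, 854 without both arrays numbered 3, 465 with no level filter, 88 among genes above the median level, and 163 to 574 with 1 array left out. Of the genes so counted, 55% were higher in knockout, 68.6% with arrays centred and 42.1% as deposited. The block moved no adjusted call. At an unadjusted p under 0.05, Plaur appeared with the block and without the filter, Plau, Plaur and Tnf with Xist as a covariate, Foxo1 without both arrays numbered 3, Mmp9 without knockout 1 and Nos2 without control 1. Signs of uncalled values turned for 17 of the 30 mRNAs in some alternative and held for 13. They turned with arrays centred for Elavl1 (0.014), Cdkn1b (0.034), Cycs (0.0056), Dek (0.063), Msi1 (0.035), Mtdh (0.0011) and Xiap (0.059). As deposited they turned for Dek (0.028) and Xiap (0.023), with the mean of all probesets for Foxo1 (-0.037) and Hif1a (0.043), with Xist as a covariate for App (-0.0056), and without both arrays numbered 3 for Elavl1 (0.058), Msi1 (0.075), Mycn (-0.096) and Ptma (-0.028). Leaving out 1 array gave ranges that cross 0: Dek -0.085 to 0.064, Slc7a1 -0.44 to 0.15, Xiap -0.037 to 0.045, Dusp1 -0.39 to 0.11, Ptma -0.049 to 0.038, Sirt1 -0.015 to 0.13, App -0.22 to 0.25, Cycs -0.15 to 0.065, Msi1 -0.11 to 0.042, Mtdh -0.17 to 0.070, Cdkn1b -0.063 to 0.0044, Myc -0.032 to 0.13, Ccna2 -0.19 to 0.024, Elavl1 -0.18 to 0.080, Marcks -0.0020 to 0.079, Mycn -0.042 to 0.16. Without a change of sign, it moved by over 1.5 times Foxo1 0.051 to 0.23 (nearest 0 without control 2), Hif1a -0.11 to -0.037 (nearest 0 without control 2), Snai1 -0.19 to -0.013 (nearest 0 without control 2), Ccnd1 0.013 to 0.11 (nearest 0 without knockout 1), Ccne1 0.045 to 0.14 (nearest 0 without control 2), Ptgs2 0.14 to 0.38 (nearest 0 without knockout 1), Nos2 -0.38 to -0.11 (nearest 0 without control 2), Tgfb1 0.039 to 0.13 (nearest 0 without control 1), Mmp9 0.12 to 0.36 (nearest 0 without knockout 3), Vegfa -0.17 to -0.040 (nearest 0 without control 1), Wnt5a 0.054 to 0.22 (nearest 0 without control 1) and Gap43 0.015 to 0.11 (nearest 0 without control 2). Medians of marker and gene lists with arrays left out were added after seeing the data. The cause was not tested. The number of arrays limits the precision, and 5 of the 31 mRNAs had a mean below the array median.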
